A study of Mus musculus with 6 samples.

Results

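The genes described here are 50 Wnt ligands, receptors, antagonists and effectors, listed by name and read from a table of expression values with 27179 entries. All 50 were found by symbol, and 41 of them reached a mean of 0.5 RPKM (reads per kilobase of gene, scaled to the depth of the library) over the libraries and were tested; the other 9 are described by their values. The cells were nephron progenitors, the Six2-expressing mesenchymal cells that build nephrons, collected at E16.5 from mouse kidneys by cell sorting for green fluorescence. Control progenitors carried the Six2TGC transgene, which places a fluorescent Cre recombinase under Six2 control. Mutant progenitors, Six2TGC;miR-17~92fl/fl, carried the same transgene together with floxed copies of the microRNA cluster miR-17~92. Each genotype had 3 libraries of total RNA, each pooled from 4 embryos. Cre acted where Six2 was active, so cells outside the Six2 lineage kept the cluster. The labels name no floxed copies in the controls and no strain, so effects of the deletion and of genetic background carried with the floxed copies cannot be told apart. The comparison asks which Wnt transcripts differed in progenitors from which the cluster was removed.

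As background, Wnt proteins are lipid-modified ligands that bind Frizzled receptors and their co-receptors. In the canonical arm, receptor engagement blocks the Axin and Apc complex that destroys beta-catenin, and beta-catenin then acts on target genes with TCF and LEF factors. In the embryonic kidney, Wnt9b from the ureteric bud acts on nephron progenitors, both to keep them dividing and to start their differentiation, and Wnt4 made by induced progenitors drives their conversion into epithelium. R-spondins are secreted proteins that raise the number of Frizzled receptors on the cell surface.

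The deletion was visible in the deposited values. Mir17, the first microRNA of the cluster, was at 12.5, 8.57 and 6.77 RPKM in control replicates 1, 2 and 3 and at 0.787, 0 and 0 RPKM in mutant replicates 1, 2 and 3. The host transcript entry Mir17hg was at 44.0 RPKM on average in controls and 212 RPKM in mutants. Depth ranged from 27602025 to 36134381 reads per library, so 1 read on a gene of 1 kb was worth 0.0277 to 0.0362 RPKM. The progenitor marker Six2 ranged from 57.0 to 104 RPKM and Eya1 from 213 to 315 RPKM over the 6 libraries. Transcripts of other cell types were also present. The interstitial collagens Col3a1 and Col1a1 varied widely between libraries. Col3a1 was at 34.0, 53.5 and 14.4 RPKM in control replicates 1, 2 and 3. In mutant replicates 1, 2 and 3 it was at 37.7, 63.8 and 54.1 RPKM. Col1a1 was at 18.6, 28.2 and 9.58 RPKM in controls and at 18.5, 38.7 and 36.8 RPKM in mutants. Mutant replicate 2, highest in both collagens, had the lowest Six2, at 57.0 RPKM. Of 12 ureteric bud and collecting duct genes, Ret and the water channel Aqp2 stayed at or below 0.26 and 0.102 RPKM, while Hoxb7 was at 19.2 to 26.3 RPKM and Calb1 at 0.372 to 4.08 RPKM. The sum of 10 of them, without Wnt11 and Wnt9b, was 25.9 to 30.5 RPKM in controls and 22.3 to 33.9 RPKM in mutants. Of the 6 tested, 0 were called (limma; 2 passed an unadjusted p of 0.05, Tfcp2l1 and Cdh1). Tfcp2l1 was at 0.405 ± 0.0938 RPKM in controls and 1.35 ± 0.672 RPKM in mutants without overlap, and Cdh1 at 0.282 ± 0.165 and 0.727 ± 0.340 RPKM (SD, n = 3 each). Both genes reached the minimum level through the mutants, so they had to be higher there to be tested. The summed RPKM of 12 macrophage and leukocyte genes was 2.25 to 5.23 in controls and 10.7 to 14.5 in mutants, and that of 10 nephron tubule genes was 4.68 to 6.57 in controls and 9.71 to 25.7 in mutants; the part of these cells in the Wnt results was not tested.

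The cluster holds 4 seed families. The mature microRNAs are shown from 5′ to 3′ because their seeds, bases 2 to 8 in capitals, set which transcripts they can pair with. Sequences are from RefSeq (GRCm38.p6), and all lie on the plus strand of chromosome 14 in the order Mir17, Mir18, Mir19a, Mir20a, Mir19b-1 and Mir92-1.
miR-17-5p: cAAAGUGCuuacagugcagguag
miR-20a-5p: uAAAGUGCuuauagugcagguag
miR-18a-5p: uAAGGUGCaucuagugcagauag
miR-19a-3p: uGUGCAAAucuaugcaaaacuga
miR-19b-3p: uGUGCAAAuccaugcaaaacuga
miR-92a-3p: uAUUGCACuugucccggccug
miR-17-5p and miR-20a-5p share a seed, as do miR-19a-3p and miR-19b-3p.

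Of the 41 tested Wnt genes, Wnt5a, Fzd2 and Dkk3 rose in mutants, Rspo3 fell, and 37 did not pass the test (limma on log2(RPKM + 0.5), Benjamini-Hochberg adjusted p of 0.05 over all 13463 tested genes). Those 4 genes are 9.76% of the tested list, beside 3.13% of all tested genes called in either direction, 1.32% called higher and 1.81% called lower. At an unadjusted p of 0.05 the list held 9 genes (22.0%), 7 higher and 2 lower, beside 19.6% of all genes. Control and mutant libraries did not overlap for 9 of the 41 genes (22.0%), beside 25.1% of all genes, so these looser counts lay near the background. The median log2 fold change was 0.06 for the list and -0.12 for all genes, and 28 of 41 listed genes exceeded it. The position of all genes depends on scaling: that median was -0.03 after median-of-ratios scaling and -0.02 after quantile normalization, where the list's medians were 0.14 and 0.09. In bulk RNA, fewer cells of a type and less RNA per cell cannot be told apart.

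**Figure D1:**
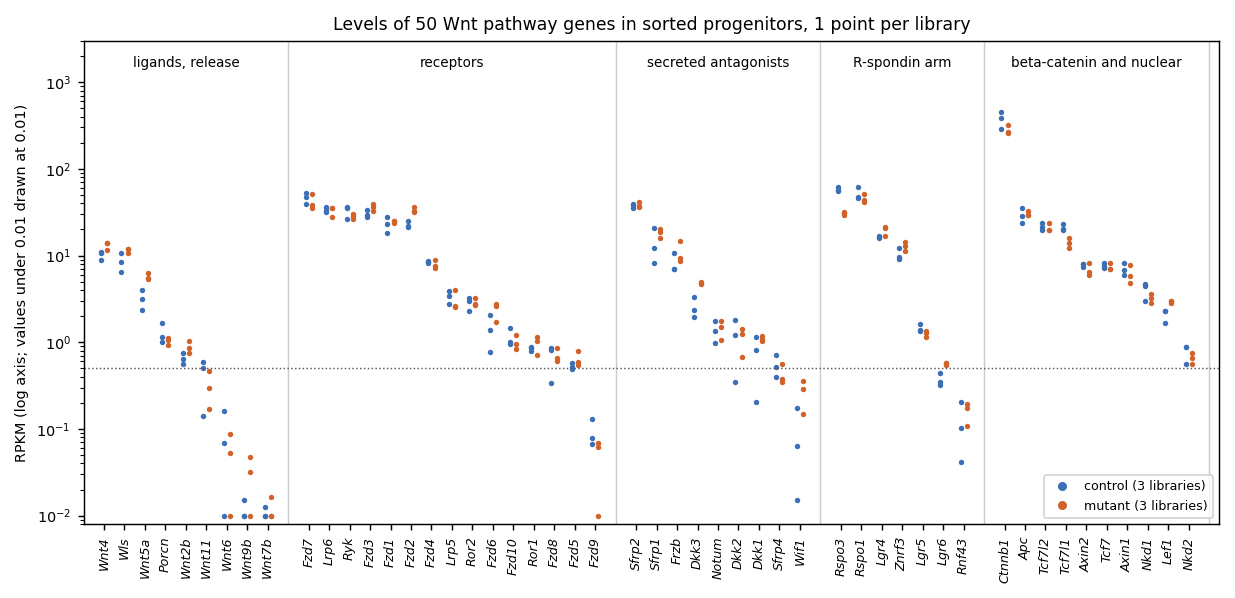
RPKM of the 50 Wnt genes on a log axis, grouped by role, with 1 point for each of the 3 control and 3 mutant libraries; the dotted line marks the 0.5 RPKM minimum, which applies to the mean over libraries, and values under 0.01 are drawn at 0.01. Ctnnb1 stands above every other listed gene, Rspo3 shows the widest gap between genotypes among abundant genes, and the ureteric bud and collecting duct ligands lie lowest in the ligand group.

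Levels covered a wide range. Ctnnb1, which encodes beta-catenin, was the most abundant of the 50 genes, at 373 ± 81.4 RPKM in controls (SD, n = 3). Rspo3 and Rspo1 ranked next in controls, at 58.1 ± 2.63 and 51.2 ± 8.55 RPKM, and these neighbours did not differ beyond their spread. Fzd7 followed at 46.4 ± 6.44 RPKM, then Sfrp2 at 37.3 ± 2.13 RPKM and Lrp6 at 33.9 ± 2.16 RPKM. In mutants Rspo3 ranked eighth, at 30.8 ± 1.09 RPKM, and Rspo1 second, at 45.2 ± 5.50 RPKM.

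Among the ligands and the genes for their release, Wnt5a rose and the others did not pass the test. Wnt5a, a ligand best known for signalling without beta-catenin, lies at chr14:28504543-28527448 (mm10), 86.5 Mb from Mir17 on the chromosome that carries the deleted cluster. It was at 3.16, 4.06 and 2.33 RPKM in control replicates 1, 2 and 3 and at 5.55, 6.24 and 5.34 RPKM in mutant replicates 1, 2 and 3. Every mutant library lay above every control library, with means of 3.18 ± 0.862 and 5.71 ± 0.472 RPKM (SD, n = 3 each) and 1335 and 2136 reads over the groups. The log2 fold change was 0.78 (SE 0.19; limma adjusted p 0.0465). That call sat at the threshold, and the adjusted p was 0.0513 to 0.228 when any library other than control replicate 2 was left out, and 0.00814 without that one; it was 0.0503 at a pseudocount of 0.1, 0.157 without a filter on low values and 0.0622 without a mean-variance trend. On chromosome 14, 10.2% of tested genes were called, beside 2.90% on the other autosomes; the part of linkage in the Wnt5a result was not tested.

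Wnt4, the ligand of epithelial conversion, was the most abundant of the 7 listed ligands. Its values were 10.6, 11.02 and 8.82 RPKM in control replicates 1, 2 and 3 and 13.9, 11.6 and 14.1 RPKM in mutant replicates 1, 2 and 3. The groups did not overlap, but the log2 fold change of 0.37 (SE 0.14) did not pass the test (limma adjusted p 0.202; 0.0480 after quantile normalization and up to 0.381 over the other alternatives). Wls, which carries Wnt proteins to the cell surface, was at 8.53, 10.6 and 6.54 RPKM in controls and at 10.8, 11.9 and 11.9 RPKM in mutants. It too was separated by group without passing the test (log2 fold change 0.43, SE 0.17, limma adjusted p 0.201). Porcn, the enzyme that attaches the lipid to Wnt proteins, lay at -0.18 on the log2 fold change scale (limma adjusted p 0.616).

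Wnt2b, a ligand of the kidney stroma, was low. Its values were 0.646, 0.759 and 0.557 RPKM in controls and 0.749, 1.03 and 0.862 RPKM in mutants, and the groups overlapped by 1 mutant library (log2 fold change 0.26, SE 0.20, limma adjusted p 0.482). The 4 ligands known from the ureteric bud and collecting duct lay under the minimum level. Wnt11, made by the bud tip, was the highest of them, at 0.499, 0.586 and 0.140 RPKM in controls and 0.296, 0.465 and 0.169 RPKM in mutants. Wnt9b was at 0.0150, 0 and 0 RPKM in controls and 0, 0.0319 and 0.0481 RPKM in mutants, 2 and 10 reads in all; a count of 0 allows up to 0.0184 to 0.0236 RPKM in those libraries, which covers counting error only. Wnt6 was covered by 16 control and 8 mutant reads, and Wnt7b by 2 and 2. In RPKM, Wnt4 thus lay far above the 4 ligands of the bud and duct in every library.

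The summed level of the 7 ligands was 14.9, 16.6 and 11.9 RPKM in control replicates 1, 2 and 3 and 20.5, 19.4 and 20.6 RPKM in mutant replicates 1, 2 and 3, without overlap. Wnt5a made up 21.7% of that sum on average in controls and 28.3% in mutants, also without overlap, and Wnt4 made up 70.5% and 65.3%.

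Among the receptors, Fzd2 rose and the 13 other tested genes did not pass the test. Fzd2, a Frizzled receptor encoded by a single-exon gene at chr11:102604431-102608058 (mm10), was at 21.6, 24.8 and 21.4 RPKM in control replicates 1, 2 and 3 and at 32.7, 31.5 and 36.0 RPKM in mutant replicates 1, 2 and 3. The mutant libraries all lay above the controls, with means of 22.6 ± 1.91 and 33.4 ± 2.35 RPKM (SD, n = 3 each), a ratio of 1.48 on 7745 and 10374 reads. The log2 fold change was 0.55 (SE 0.13; limma adjusted p 0.0390). Its adjusted p was 0.182 without control replicate 1 and 0.110, 0.119 and 0.129 without mutant replicates 1, 2 and 3. The call was also lost without a filter on low values (0.0758), without a mean-variance trend (0.0791) and with a replicate block (0.0639). Of the 31-base words of Fzd2, 1.90% occurred in another gene, most often Fzd1, and how reads that match more than 1 gene were counted is not known.

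Fzd7 was the most abundant Frizzled. It stood at 47.2, 52.4 and 39.6 RPKM in controls and at 51.7, 37.9 and 35.0 RPKM in mutants, and the groups overlapped (log2 fold change -0.17, SE 0.17, limma adjusted p 0.573). Fzd3, on chromosome 14 and 49.8 Mb from Mir17, was at 29.1, 27.8 and 33.3 RPKM in controls and at 39.2, 32.8 and 36.5 RPKM in mutants (log2 fold change 0.26, SE 0.13, limma adjusted p 0.291). Fzd6 was at 1.37, 2.04 and 0.773 RPKM in controls and at 2.62, 1.72 and 2.73 RPKM in mutants, with overlap through mutant replicate 2 (log2 fold change 0.63, SE 0.26, limma adjusted p 0.212). Fzd1 had a mean log2 fold change of 0.11 and Fzd4 of -0.11, and the low Fzd5, Fzd8 and Fzd10 lay between -0.12 and 0.15. Fzd9 was at most 0.129 RPKM in any library and was not tested.

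The 10 Frizzled genes can be added, because RPKM is scaled for length. Their sum was 132.6, 146.5 and 124.2 RPKM in control replicates 1, 2 and 3 and 161.2, 138.3 and 145.5 RPKM in mutant replicates 1, 2 and 3, and the groups overlapped. Within that sum Fzd2 made up 16.3%, 16.9% and 17.2% in controls and 20.3%, 22.8% and 24.8% in mutants, without overlap. Fzd7 made up 35.6%, 35.8% and 31.9% in controls and 32.1%, 27.4% and 24.1% in mutants, where mutant replicate 1 lay above control replicate 3. A share depends on every gene in the sum, so these values show unequal change and not which gene moved.

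No co-receptor or alternative receptor passed the test. Lrp6, the more abundant of the LRP co-receptors of the canonical arm, was at 32.1, 36.3 and 33.4 RPKM in controls and at 35.5, 27.9 and 35.6 RPKM in mutants (log2 fold change -0.05, SE 0.14, limma adjusted p 0.865). Lrp5, at a control mean of 3.35 RPKM, had a log2 fold change of -0.13. Ryk, a receptor that binds Wnt proteins outside the Frizzled family, was at 35.9, 35.3 and 26.6 RPKM in controls and at 28.9, 26.4 and 30.01 RPKM in mutants (log2 fold change -0.18, SE 0.14, limma adjusted p 0.483). Ror2, a receptor of Wnt5a, had 2.83 RPKM in controls and 2.88 RPKM in mutants on average, so the rise of the ligand came without a called change in Ror1, Ror2 or Ryk.

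**Figure D2:**
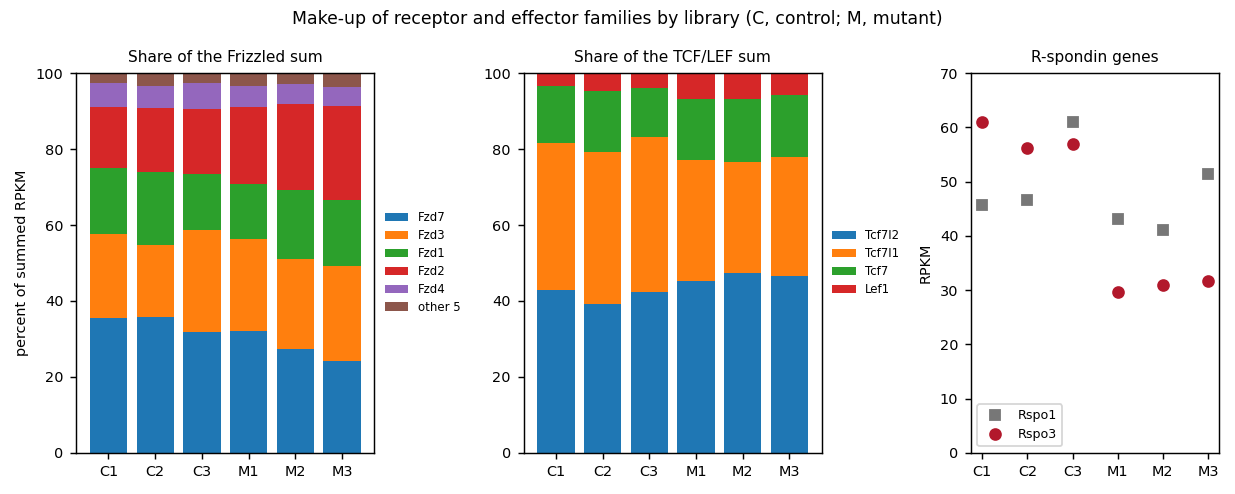
Left and middle, percent of the summed RPKM taken by each of the 10 Frizzled genes (5 low ones merged) and the 4 TCF and LEF genes, with 1 stacked bar for each of the 6 libraries; right, RPKM of Rspo1 (squares) and Rspo3 (circles) in the same libraries. Fzd2 takes 16.3% to 17.2% in controls and 20.3% to 24.8% in mutants, and Tcf7l1 takes 38.8% to 40.9% in controls and 29.4% to 31.8% in mutants, while Rspo3 lies at 29.6 to 31.7 RPKM in mutants and at 56.1 to 61.1 RPKM in controls.

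Of the secreted antagonists, 7 were tested, and all 7 had a log2 fold change above the median of all genes, but Dkk3 alone passed the test. Dkk3, a divergent member of the Dickkopf family whose action on Wnt signalling differs between settings, lies at chr7:112116019-112159482 (mm10). It was at 2.36, 3.30 and 1.97 RPKM in control replicates 1, 2 and 3 and at 4.73, 4.93 and 4.78 RPKM in mutant replicates 1, 2 and 3. The groups lay apart, with means of 2.54 ± 0.681 and 4.82 ± 0.103 RPKM (SD, n = 3 each), a ratio of 1.89 on 820 and 1384 reads. The log2 fold change was 0.83 (SE 0.18; limma adjusted p 0.0328). Its adjusted p was 0.117 without control replicate 1 and 0.115, 0.155 and 0.0800 without mutant replicates 1, 2 and 3, and 0.130 without a filter on low values.

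Several other antagonists varied widely between libraries. Sfrp1, a soluble protein that binds Wnt ligands, was at 12.2, 21.0 and 8.17 RPKM in controls and at 15.8, 20.01 and 18.6 RPKM in mutants (log2 fold change 0.48, SE 0.26, limma adjusted p 0.325; 0.0139 without control replicate 2). Dkk1, which binds the LRP co-receptors, was at 0.816, 1.16 and 0.206 RPKM in controls and at 1.18, 1.03 and 1.10 RPKM in mutants (log2 fold change 0.47, SE 0.29, limma adjusted p 0.375). Frzb, a relative of Sfrp1, was at 6.98, 10.6 and 7.06 RPKM in controls and at 14.6, 8.57 and 9.38 RPKM in mutants (log2 fold change 0.37, SE 0.21, limma adjusted p 0.356). In all 3 genes control replicate 2 lay inside or above the range of the mutants. Sfrp2, the most abundant antagonist, was at 34.9 to 38.8 RPKM in controls and 36.0 to 41.3 RPKM in mutants (log2 fold change 0.04, limma adjusted p 0.889). Dkk2 and Notum, an enzyme that strips the lipid from Wnt proteins, had log2 fold changes of 0.09 and 0.06. Wif1 and Sfrp4 lay under the minimum level, and Wif1 was covered by 19 control and 50 mutant reads.

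A sorted population can hold neighbouring cells, so markers of the kidney interstitium were read beside the 3 genes that rose. The summed RPKM of 14 interstitial markers was 439, 555 and 330 in control replicates 1, 2 and 3 and 440, 502 and 518 in mutant replicates 1, 2 and 3. Aldh1a2 made up most of that sum; without it, a choice made after the values were seen, the sums were 145, 207 and 88.1 RPKM in controls and 155, 249 and 221 RPKM in mutants. All 14 markers had a log2 fold change above the median of all genes, and 0 passed the adjusted p (limma). At an unadjusted p of 0.05 (limma) 4 passed, 28.6% beside 19.6% of all tested genes. Those 4 were the matrix genes Col1a1, Col1a2, Dcn and Lum, each lowest in control replicate 3, so they are not separate results. None of the 14 was at 0, and Foxd1, which defines the stromal lineage, was at 8.84 to 12.4 RPKM in controls and 9.10 to 12.6 RPKM in mutants. The part of interstitial cells in the 3 rises was not tested.

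**Figure D3:**
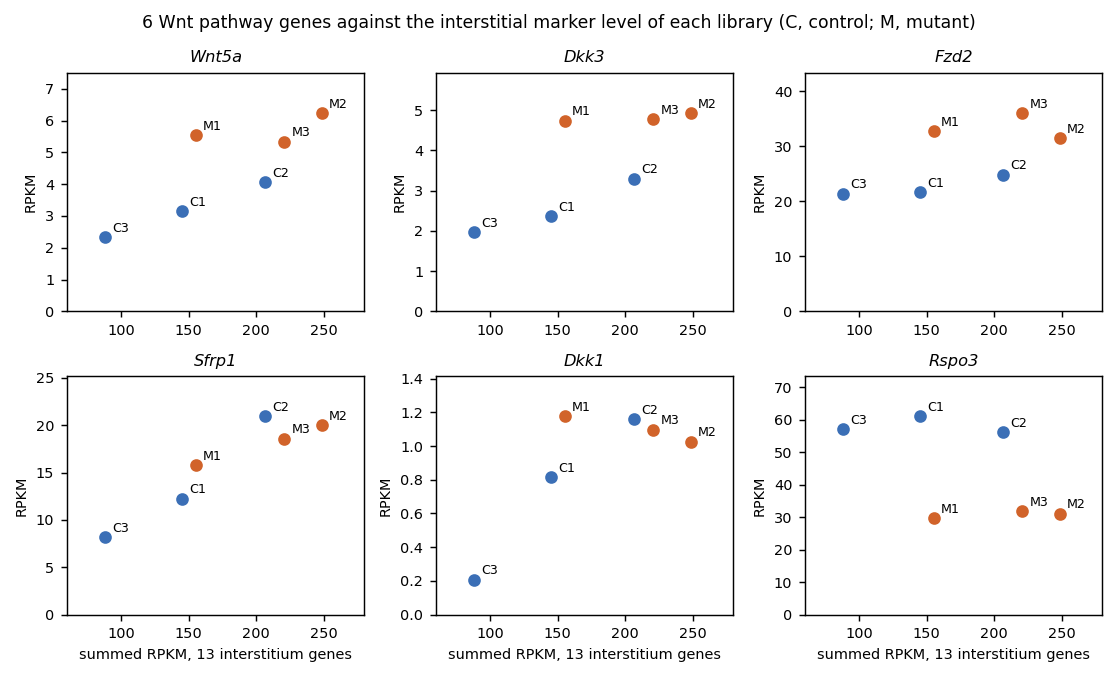
RPKM of Wnt5a, Dkk3, Fzd2, Sfrp1, Dkk1 and Rspo3 on the y axes against the summed RPKM of 13 interstitial markers (Aldh1a2 left out) on the x axis, with 1 labelled point for each library. The x values run from 88.1 to 207 RPKM in controls and from 155 to 249 RPKM in mutants, so the groups overlap along that axis.

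In the R-spondin arm, Rspo3 fell and no other gene passed the test. Rspo3, a secreted R-spondin at chr10:29453106-29535867 (mm10), was at 61.1, 56.1 and 57.0 RPKM in control replicates 1, 2 and 3 and at 29.6, 31.01 and 31.7 RPKM in mutant replicates 1, 2 and 3. Replicates lay close together and the groups far apart, with means of 58.1 ± 2.63 and 30.8 ± 1.09 RPKM (SD, n = 3 each), a ratio of 0.53 on 13017 and 6312 reads. The log2 fold change was -0.90 (SE 0.12; limma adjusted p 0.00166). It was called under all 17 alternatives run, with log2 fold changes from -0.93 to -0.74 and adjusted p from 0.000140 to 0.0176. The summed RPKM of 10 nephron progenitor markers was 809 to 866 in controls and 620 to 713 in mutants, and the part of this difference in the Rspo3 result was not tested. Of the 10, all tested, Meox1 and Capn6 were called lower (20%, beside 1.81% of all tested genes), and 2 exceeded the all-gene median. The log2 fold change was -0.95 for Meox1 (limma adjusted p 0.00271) and -0.37 for Six2 (limma adjusted p 0.249). Itga8 went the other way without overlap, at 0.34 (limma adjusted p 0.194), and Sall1 was at -0.10 (limma adjusted p 0.671).

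Rspo1, its relative, was at 45.8, 46.7 and 61.0 RPKM in controls and at 43.1, 41.1 and 51.5 RPKM in mutants, with overlap (log2 fold change -0.17, SE 0.15, limma adjusted p 0.527). The sum of both R-spondins was 107, 103 and 118 RPKM in control replicates 1, 2 and 3 and 72.7, 72.1 and 83.2 RPKM in mutant replicates 1, 2 and 3. Rspo3 made up 57.1%, 54.6% and 48.3% of it in controls and 40.7%, 43.0% and 38.1% in mutants, so Rspo1 held the larger part in every mutant library and in control replicate 3.

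The partners of the R-spondins did not pass the test. Lgr4, the most abundant of the R-spondin receptors, was at 17.0, 16.2 and 15.9 RPKM in controls and at 20.9, 16.9 and 21.3 RPKM in mutants (log2 fold change 0.26, SE 0.13, limma adjusted p 0.312). Znrf3, a ubiquitin ligase that removes Frizzled receptors and that R-spondins block, was at 9.08, 9.73 and 12.2 RPKM in controls and at 12.7, 11.1 and 14.3 RPKM in mutants (log2 fold change 0.29, SE 0.15, limma adjusted p 0.315). Its relative Rnf43 was at most 0.205 RPKM in any library. For Lgr5 the log2 fold change was -0.15 (limma adjusted p 0.648), and Lgr6, not tested, was at 0.318, 0.351 and 0.442 RPKM in controls and 0.584, 0.576 and 0.550 RPKM in mutants.

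Among beta-catenin, its destruction complex and the nuclear factors, none of 10 tested genes passed the test, and 2 passed an unadjusted p of 0.05, Tcf7l1 and Lef1 (limma). Tcf7l1, the TCF factor best known as a repressor, missed the threshold narrowly. It was at 19.6, 20.4 and 23.1 RPKM in control replicates 1, 2 and 3 and at 13.8, 12.4 and 16.0 RPKM in mutant replicates 1, 2 and 3. The groups did not overlap, with means of 21.0 ± 1.88 and 14.1 ± 1.83 RPKM (SD, n = 3 each). The log2 fold change was -0.57 (SE 0.14; limma adjusted p 0.0524, and 0.0241 to 0.231 over the alternatives). Lef1, which often acts as an activator, was at 1.68, 2.32 and 2.27 RPKM in controls and at 2.98, 2.84 and 2.96 RPKM in mutants (log2 fold change 0.41, SE 0.17, limma adjusted p 0.221). Tcf7 and Tcf7l2 had log2 fold changes of -0.04 and -0.05.

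The 4 factors summed to 50.4, 50.7 and 56.6 RPKM in control replicates 1, 2 and 3 and to 43.6, 42.1 and 51.0 RPKM in mutant replicates 1, 2 and 3. Within the sum Tcf7l1 made up 38.8%, 40.1% and 40.9% in controls and 31.8%, 29.4% and 31.4% in mutants. Tcf7l2 took 41.5% ± 1.99 in controls and 46.3% ± 0.981 in mutants, and Lef1 3.97% ± 0.617 and 6.47% ± 0.571 (SD, n = 3 each). The groups did not overlap for the shares of these 3 genes, but a share depends on every gene in the sum. In RPKM Tcf7l2 itself overlapped between groups, at a log2 fold change of -0.05.

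Ctnnb1 was at 385, 448 and 286 RPKM in control replicates 1, 2 and 3 and at 323, 263 and 260 RPKM in mutant replicates 1, 2 and 3. Control replicate 3 lay among the mutants, and the log2 fold change of -0.39 (SE 0.18) did not pass the test (limma adjusted p 0.264; 0.0314 without control replicate 3). Axin2, a scaffold of the destruction complex and a common target gene of beta-catenin, was at 7.45, 8.00 and 8.07 RPKM in controls and at 6.48, 6.03 and 8.27 RPKM in mutants (log2 fold change -0.18, SE 0.15, limma adjusted p 0.514). Its values overlapped through mutant replicate 3. Nkd1, a feedback antagonist that binds Dishevelled, was at 4.43, 4.75 and 2.96 RPKM in controls and at 2.85, 3.20 and 3.59 RPKM in mutants (log2 fold change -0.27, SE 0.19, limma adjusted p 0.431). Nkd2, Axin1 and Apc had log2 fold changes of -0.14, -0.19 and 0.07.

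**Figure D4:**
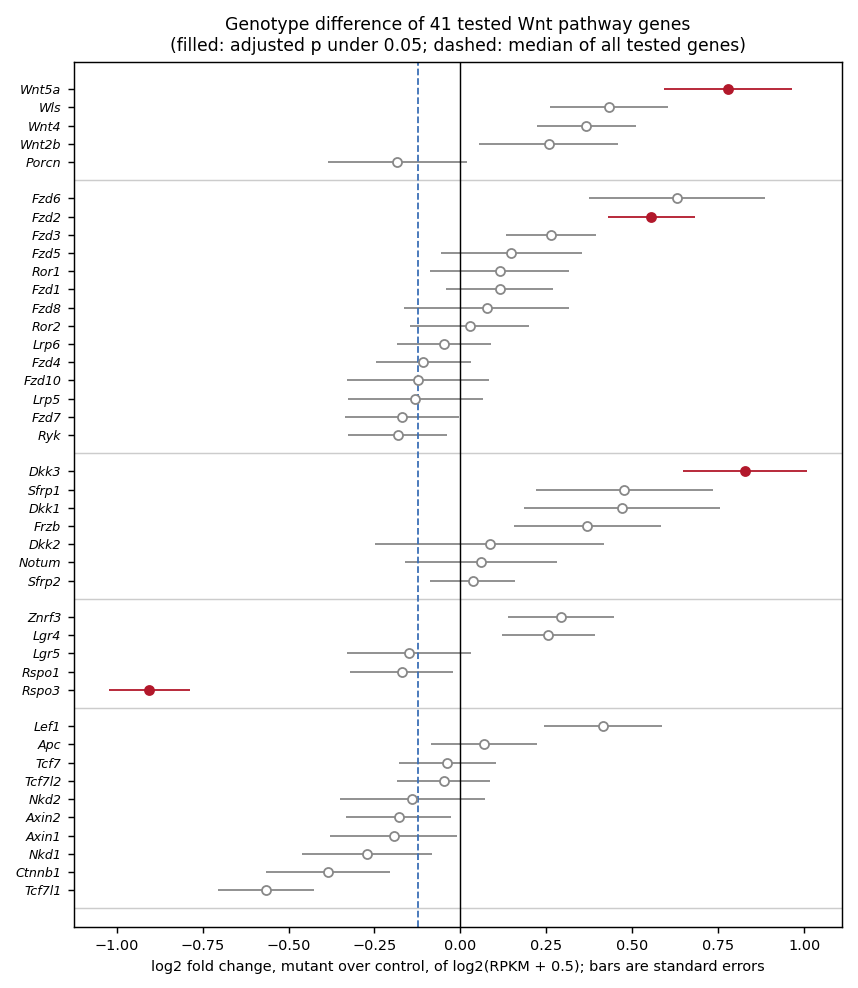
Log2 fold change, mutant against control on the log2(RPKM + 0.5) scale, of the 41 tested Wnt genes by role, with bars of 1 SE; the solid line marks 0, the dashed line the median of all tested genes, and filled points the 4 called genes. Rspo3 at -0.90 and Tcf7l1 at -0.57 lie at the low end, and Dkk3, Wnt5a, Fzd6 and Fzd2 lie between 0.55 and 0.83 at the high end.

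A further 107 genes of the pathway were read for comparison. Of these, 85 were tested, 2 rose, 1 fell and 82 did not pass the test, so 3.53% were called, near the 3.13% of all genes. Their median log2 fold change was -0.14, close to that of all genes.

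Daam1, a formin that links Dishevelled to the actin cytoskeleton in planar cell polarity, fell. It was at 12.99, 11.6 and 15.4 RPKM in control replicates 1, 2 and 3 and at 6.82, 5.26 and 5.64 RPKM in mutant replicates 1, 2 and 3 (log2 fold change -1.11, SE 0.16, limma adjusted p 0.00264). The groups did not overlap, and the call held under all 17 alternatives. The other 16 tested polarity genes did not pass the test; Prickle1 had the next lowest p of the list, at 0.44 on the log2 scale (limma adjusted p 0.275).

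Wnt8b, a ligand known from the developing brain, rose from a very low level. It was at 0.141, 0.0246 and 0.242 RPKM in controls and at 0.949, 0.864 and 1.34 RPKM in mutants, from 40 and 303 reads (log2 fold change 1.29, SE 0.23, limma adjusted p 0.0114; 0.0565 without mutant replicate 2). The size depends on the scale: the log2 fold change was 2.38 at a pseudocount of 0.1, 0.85 at a pseudocount of 1 and 3.44 with voom on recovered reads. The gene passed the minimum level through the mutants, so it had to differ to be tested, and it lay under the minimum without mutant replicate 3. Wnt5b, the closest relative of Wnt5a, had means of 1.19 and 1.97 RPKM and did not overlap between groups (log2 fold change 0.56, limma adjusted p 0.201). Only 3 of 12 other ligands were tested.

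Of 11 tested genes read as beta-catenin targets in nephron progenitors, Emx2 rose and the rest did not pass the test. That is 9.09% called, beside 3.13% of all tested genes. At an unadjusted p of 0.05 (limma) 4 passed, 36.4% beside 19.6% of all genes, 2 higher and 2 lower. The lower ones were Myc at -0.32 and Cited1 at -0.39 on the log2 scale (limma adjusted p 0.248 and 0.235). Emx2, a transcription factor needed for kidney development, was at 0.849, 1.82 and 0.917 RPKM in controls and at 2.61, 2.76 and 2.98 RPKM in mutants (log2 fold change 1.00, limma adjusted p 0.0342; 0.134 without control replicate 1 and 0.106, 0.161 and 0.103 without mutant replicates 1, 2 and 3, and 0.153 without a filter on low values). Lhx1, a marker of the renal vesicle, had means of 1.83 and 2.88 RPKM (log2 fold change 0.53, limma adjusted p 0.146). Markers of committed progenitors and the renal vesicle were read beside Emx2, Lhx1, Wnt4 and Lef1. That list shares Wnt4 with the ligands and Pax8, Fgf8, Lhx1, Jag1 and Ccnd1 with the targets above, so it is not a separate reading. Of 9 tested, 8 exceeded the all-gene median, 4 passed an unadjusted p of 0.05 and 1 was called. That gene was Cdh6, a cadherin of early nephron epithelium, at 5.45 ± 0.292 RPKM in controls and 10.5 ± 2.16 RPKM in mutants (SD, n = 3 each), with a limma adjusted p of 0.0146. The summed RPKM of the list without Wnt4 was 93.3 to 111 in controls and 97.6 to 126 in mutants, and none of its genes was at 0. The part of committed cells in these results was not tested.

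No gene passed the test among 10 other extracellular modulators, 24 other cytoplasmic genes and 20 nuclear cofactors (limma; 2, 5 and 4 of them passed an unadjusted p of 0.05). Sostdc1, a secreted antagonist, stood at 1.75 and 4.48 RPKM in controls and mutants (log2 fold change 1.26, limma adjusted p 0.158; 0.00488 without control replicate 2), and Ptk7, a co-receptor, at a log2 fold change of -0.38. The median log2 fold change was -0.18 for the cytoplasmic genes and -0.23 for the nuclear cofactors, and 6 of 24 and 4 of 20 exceeded the all-gene median. Pygo2, which bridges beta-catenin to chromatin, was at 7.28, 7.36 and 7.51 RPKM in controls and at 4.78, 5.11 and 5.48 RPKM in mutants. Its groups lay far apart relative to their spread, and -0.49 on the log2 scale came with a limma adjusted p of 0.0894. Csnk1g2, Ccny and Tbl1xr1 had log2 fold changes of -0.50, -0.57 and -0.40 (limma adjusted p 0.145, 0.115 and 0.151).

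Seed matches of the cluster were sought in 3′ UTRs, taking the longest that is annotated per gene, on the transcribed strand. The motifs were GCACTTT and CACTTTA for miR-17-5p and miR-20a-5p, GCACCTT and CACCTTA for miR-18a-5p, TTTGCAC and TTGCACA for the miR-19 pair, and GTGCAAT and TGCAATA for miR-92a-3p; an 8-base match joins both motifs of a family. Motifs of different families may overlap, and a gene was counted once. Of the 41 tested Wnt genes, 22 (53.7%) held at least 1 match, beside 5795 of 11716 tested genes with a 3′ UTR (49.5%). The Wnt genes had longer 3′ UTRs, with a median of 2136 bases beside 1410.5, and fewer matches per kb, 0.350 beside 0.507. By family the shares were 29.3% and 23.5% for miR-17-5p and miR-20a-5p, 14.6% and 16.0% for miR-18a-5p, 17.1% and 21.3% for the miR-19 pair, and 14.6% and 14.9% for miR-92a-3p.

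A match was held by 53.7% of the 41 tested Wnt genes and 49.5% of all tested genes with a 3′ UTR. All 4 called genes held a match, the gene that fell as well as the 3 that rose. Each is shown from 5′ to 3′ as the transcript's DNA letters (GRCm38), with the match in capitals, because the seeds printed above could pair within these stretches. The last A of the Fzd2 and Dkk3 matches lies outside the part that a seed can pair with.
Rspo3: agagatgaGCACTTTgttcctcc
Fzd2: gcacacacCACTTTAagaatgac
Wnt5a: tgtgtgatGTGCAATtaatagaa
Dkk3: tggtagatGTGCAATAgaaatggc
The Rspo3 match begins at base 1304 of a 1712-base 3′ UTR and that of Fzd2 at base 878 of 1614, and both belong to the seed of miR-17-5p and miR-20a-5p. The matches of Wnt5a, at base 3149 of 4508, and Dkk3, an 8-base match at base 30 of 2194, belong to miR-92a-3p. Dkk3 held 1 further match each for the miR-19 pair and miR-18a-5p. A match is a stretch of letters and not a measured binding site, and levels of the mature microRNAs were not measured.

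Fzd3 and Ryk, both abundant receptors, held an 8-base match for miR-17-5p and miR-20a-5p and are shown for comparison, since neither was called.
Fzd3: ttttcttaGCACTTTAactgtgag
Ryk: ggtcccacGCACTTTAtcagtgtt
Fzd3 had a log2 fold change of 0.26 and Ryk of -0.18, on either side of 0. An 8-base match of any family was found in 5 of the 41 Wnt genes (12.2%) and in 14.7% of all tested genes.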

How the data were processed

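Total RNA of sorted progenitors was made into libraries by the Ovation RNA-Seq System V2 kit and sequenced as paired reads, per the labels' protocols. RPKM values of 6 libraries, scaled for gene length and depth by the authors, were deposited as 1 table. The submitters' processing notes name the build mm10 and the tools FastQC and limma, without versions. The counting tool, annotation and strand setting were not given in the sources used here. Without the strand, reads from antisense genes, which overlap Rspo3, Wnt5a, Tcf7l1, Ctnnb1 and 8 more listed genes, cannot be told apart from their own. Symbols were matched for 25275 of 27179 entries.

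RPKM values fall on a grid of whole reads, from which depth and reads were worked out. They were whole to within 0.00126 of a read for all 13463 tested genes. Floors are 3 reads and cover counting error only.

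The 2 genotypes were compared by limma 3.58.1 (R 4.3.3) on a log2(RPKM + 0.5) scale, which understates changes of low genes, wherever the mean reached 0.5 RPKM. The fit had a mean-variance trend, 1 term for genotype and Benjamini-Hochberg adjustment at 0.05 over all tested genes, two-sided, and was tested on simulated data. Nothing says whether the pools came from separate litters, so p-values measure the spread between these libraries. Seed matches and shared 31-base words were counted with Python 3.11.15 and an annotation of the same build. Members, lists and the rule for named genes (called genes, up to 4 of lowest p per role, and 13 genes set by name; in further lists, called genes and the 2 of lowest p) were chosen with earlier results of these data known. Alternatives were the pseudocount, filter, scaling, variance model, weights, replicate block, voom on recovered reads, leaving out each library, and 8-base matches alone.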

Additional observations from a re-analysis of the deposited data

How the results depend on the processing

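Of the 50 listed genes 4 were called as reported. The count was 1 without a filter on low values (0.616% of all genes) and 2 without a mean-variance trend (2.41% of all genes), and 3 to 5 under the other settings that kept all libraries; leaving out 1 library gave 1 (control replicate 1 or any mutant replicate) to 5. Rspo3 and Daam1 kept their calls under every setting. Wnt5a had an adjusted p of 0.0503 at a pseudocount of 0.1, 0.157 without a filter and 0.0622 without a trend; Fzd2 had 0.0758 without a filter, 0.0791 without a trend and 0.0639 with a replicate block; Dkk3 had 0.130 and Emx2 0.153 without a filter (limma). Tcf7l1 was called with robust variances (0.0436), array weights (0.0455) and voom (0.0241). All these settings kept the direction of the calls, and the cause of the differences was not tested.

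The 3 calls among further pathway genes became 2 without a filter and at a minimum of 1 RPKM, 4 with voom on recovered reads, and 1 (mutant replicates 2 or 3) to 6 (control replicate 3) with 1 library left out. Over all genes the 422 calls became 143 without a filter, which tests more genes, and 686 with voom; leaving out 1 library gave 1083 (control replicate 3), 210 (control replicate 1), 202, 148 and 243 (mutant replicates 1, 2 and 3). Calls split 178 higher and 244 lower as deposited, 262 and 172 after median-of-ratios scaling, and 264 and 163 after quantile normalization. The median log2 fold change of the listed genes, 0.061, ranged from -0.039 (without control replicate 3) to 0.071 with 1 library left out, and 6 listed genes near 0 (Fzd4, Fzd7, Lrp6, Rspo1, Tcf7 and Tcf7l2) changed sign with scaling. Counting 8-base matches alone left 5 of the 22 genes with a seed match.

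Replicate numbers are shared by the groups, but no label ties them to litters or days. Deviations of same-numbered libraries correlated at 0.05, 0.16 and 0.15, and each library correlated best with its own number, a hint from the data and not the design. With the replicate block 3 listed genes, 3 further genes and 393 of all genes were called. Genes under 1 RPKM rest on few reads, and 6 of the tested genes lie there.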
